A study of Homo sapiens with 4 samples.

Results

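The clustered histone genes are the protein-coding genes that GENCODE release 29 names with the prefixes HIST1H, HIST2H, HIST3H or HIST4H, and 71 of the 58735 genes in the deposited count table met that rule. They comprised 6 genes of the linker histone H1 and, among the core histones, 17 genes of H2A, 18 of H2B, 15 of H3 and 15 of H4. The HIST1 cluster on chromosome 6 held 55 of them, the HIST2 cluster on chromosome 1 held 12, the HIST3 cluster on chromosome 1 held 3, and HIST4H4 lies alone on chromosome 12. The values come from RNA-seq of polyadenylated RNA from MHCC97-H, an established hepatocellular carcinoma cell line. All 4 libraries were wild-type MHCC97-H cells; 2 were untreated and 2 had received clofazimine (CFZ), a riminophenazine antimycobacterial drug, for 16 hours. The sample labels give the dose as 40 uM and the series' design text as 30 uM, so the dose is uncertain. No vehicle is named for the untreated cells, and the labels leave unsaid whether each replicate was a culture of its own, so the tests read the spread among these 4 libraries, which may be technical. A change in RNA per cell cannot be told apart from a change in the mix of cells.

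Core histones H2A, H2B, H3 and H4 form the protein spool of the nucleosome, and linker histone H1 binds where DNA enters and leaves it. Most clustered histone genes are transcribed in S phase under NPAT and cyclin E-CDK2, as DNA is copied. Their usual mRNA has no poly(A) tail and ends just after a stem-loop that is bound by the stem-loop binding protein SLBP, and the mRNA is degraded when replication stops. Some of the genes also give polyadenylated transcripts that run on past the stem-loop, in particular in differentiated cells. Selection for polyadenylated RNA therefore samples mainly the second kind of transcript, and abundance below is not a measure of total histone mRNA.

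The stem-loop is shown first because the usual histone mRNA ends just after it, without a poly(A) tail. Transcripts that hold the stem-loop but run on past it can be polyadenylated, so its presence alone does not decide capture. A search of the GENCODE 29 transcripts, on the transcript strand, for the 16-base histone stem-loop consensus, which leaves 1 pair of the stem and 1 loop base free, found it in 34 of 19684 protein-coding genes (0.173%), of which 31 were clustered histone genes. The letters differed little between members: 17 of the 31 had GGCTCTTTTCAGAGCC, 5 had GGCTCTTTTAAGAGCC, 5 had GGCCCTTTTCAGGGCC, 3 had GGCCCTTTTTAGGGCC and 1 had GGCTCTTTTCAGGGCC. The lines below give the 30 bases around it, 5′ to 3′ in the transcript's sense as DNA letters, with the 16 bases of the stem-loop in capitals, for 1 gene whose RNA was higher with clofazimine (HIST3H2A), 5 whose RNA was lower and 1 that was not called (HIST1H3H). 
HIST3H2A: acataaaGGCTCTTTTCAGAGCCacctact
HIST1H2AG: aaccaacGGCTCTTTTCAGGGCCacccacg
HIST1H2BD: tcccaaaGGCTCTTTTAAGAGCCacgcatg
HIST1H4H: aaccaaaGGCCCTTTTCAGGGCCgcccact
HIST1H4I: ctaaaaaGGCCCTTTTTAGGGCCcctaagc
HIST4H4: tccaaaaGGCCCTTTTCAGGGCCcccaaac
HIST1H3H: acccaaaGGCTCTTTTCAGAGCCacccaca
In GRCh38 the stem-loop of HIST3H2A lies at chr1:228457369-228457384 on the minus strand, that of HIST1H2AG at chr6:27133515-27133530 on the plus strand and that of HIST1H2BD at chr6:26158587-26158602 on the plus strand. Those of HIST1H4H, HIST1H4I and HIST4H4 lie at chr6:26285131-26285146 (minus), chr6:27139654-27139669 (plus) and chr12:14770724-14770739 (minus). HIST3H2A, which was higher, and HIST1H3H, which was not called, have the same 16 letters.

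Annotated transcripts ran at least 100 bases past the stem-loop in 22 of the 71 members, and the model of 33 members holds coding bases only, so that no stem-loop could be looked for there. Of the 25 members with enough reads to test, 15 ran past the stem-loop and 5 had coding bases only; of the 46 members not tested, the numbers were 7 and 28. The median length of the exon model was 1237 bases in tested members and 411 bases in the rest. A longer model has more room for reads, and its part in which genes could be tested was not tested. A poly(A) signal stood in the last 40 bases of a model in 13 of the 25 tested members and in 10 of the 46 others. Among the members called below, models ran past the stem-loop in 1 of the 4 higher and in 5 of the 7 lower, and in 9 of the 14 not called. Models held coding bases only in 2 of the 4 higher, 1 of the 7 lower and 2 of the 14 not called. A further 1, 0 and 1 had no stem-loop in the model. Run-on could not be scored in such models, so these counts do not compare transcript types between risen and fallen genes.

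Promoters are shown for 3 of the 4 members whose RNA was higher, to set linker histone genes beside an H2A gene. RefSeq (GRCh38.p14) holds an entry for all 71 members and a promoter, from 250 bases before to 50 bases after the start, for 66. Capitals mark the CCAAT box, the TATA box spelled TATAAA, the octamer ATTTGCAT and the H1 box AAACACA, each searched on both strands; the octamer stands in none of these 3. HIST1H1C is at chr6:26056421-26056720 (minus strand), HIST1H1E at chr6:26156079-26156378 (plus strand) and HIST3H2A at chr1:228457824-228458123 (minus strand).
HIST1H1C: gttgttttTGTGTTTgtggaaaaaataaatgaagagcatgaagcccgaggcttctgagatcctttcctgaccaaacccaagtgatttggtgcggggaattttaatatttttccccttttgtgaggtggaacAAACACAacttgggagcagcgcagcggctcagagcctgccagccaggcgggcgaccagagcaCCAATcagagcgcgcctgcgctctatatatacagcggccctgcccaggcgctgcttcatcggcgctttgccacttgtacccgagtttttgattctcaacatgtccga
HIST1H1E: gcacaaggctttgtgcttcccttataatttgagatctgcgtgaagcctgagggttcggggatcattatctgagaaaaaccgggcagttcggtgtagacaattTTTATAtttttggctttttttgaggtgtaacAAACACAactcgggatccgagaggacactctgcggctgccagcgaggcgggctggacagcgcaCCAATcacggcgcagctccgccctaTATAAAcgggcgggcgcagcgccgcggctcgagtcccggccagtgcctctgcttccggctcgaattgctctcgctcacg
HIST3H2A: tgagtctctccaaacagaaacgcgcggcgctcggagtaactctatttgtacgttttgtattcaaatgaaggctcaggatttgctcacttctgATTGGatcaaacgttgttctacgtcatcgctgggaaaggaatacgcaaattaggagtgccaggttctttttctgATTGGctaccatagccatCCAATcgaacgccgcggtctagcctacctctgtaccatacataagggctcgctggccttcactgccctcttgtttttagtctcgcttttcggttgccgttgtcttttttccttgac
CCAAT, the element bound by NF-Y, stood in 56 of the 66 member promoters (84.8%) and in 34.6% of all 35116 promoters; it stood in every H1, H2A, H2B and H3 promoter given and in 3 of 13 H4 promoters. TATAAA stood in 66.7% of member promoters and 11.5% of all. ATTTGCAT, the element bound by OCT1, stood in 11 of 16 H2A promoters and 14 of 18 H2B promoters, in no H1, H3 or H4 promoter, and in 1.77% of all promoters. AAACACA stood in all 6 H1 promoters, 1 of 16 for H2A, 2 of 13 for H3, none for H2B or H4, and 5.64% of all promoters. It was in 3 of the 4 promoters of members called higher and in 0 of the 7 of members called lower. That split follows the classes: 2 of the members called higher are H1 genes, and no H1 gene was called lower. The other match is in HIST2H2AC, after the start. It therefore cannot show a link between this element and the change. These matches are letters in a window and say nothing of which factor was bound.

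Libraries held 13543437 to 16860578 counts, and 24082 to 26091 genes had at least 1. Clustered histone genes made up little of that: 1709 and 1715 counts in untreated replicates 1 and 2 and 1402 and 1813 counts in clofazimine replicates 1 and 2, or 0.0102% to 0.0111% of each library. Over all 71 members the summed level was 97.5 and 97.1 CPM (counts scaled to library size, here with edgeR's TMM factors) in untreated cells and 109.0 and 118.8 CPM in treated cells. The 3 members with the most reads, HIST1H1C, HIST3H2A and HIST1H2AC, held 54.0% of the member counts. A count of 3, taken as the detection floor, corresponds to 0.17 to 0.233 CPM. Such intervals and floors cover counting error only.

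Enough reads for edgeR's quasi-likelihood test were found for 25 members. At an adjusted p under 0.05 (Benjamini-Hochberg over all 16388 genes tested) 11 of the 25 were called, 44.0%, where 59.9% of all tested genes were called. RNA of 4 members rose and that of 7 fell, against 29.5% higher and 30.4% lower over all genes. Their median log2 fold change, clofazimine against untreated, was 0.17, and that of all tested genes was -0.03. Both libraries of a group lay beyond both of the other in 21 of the 25, 9 higher and 12 lower, as they did in 80.8% of all tested genes. By class, H1 rose in 2 of 2 tested members and H2A in 2 of 6 with 1 lower, while H2B fell in 3 of 11 and H4 in 3 of 5 with none higher, and the 1 tested H3 member was not called. Whether the classes differ from each other was not tested.

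**Figure D1:**
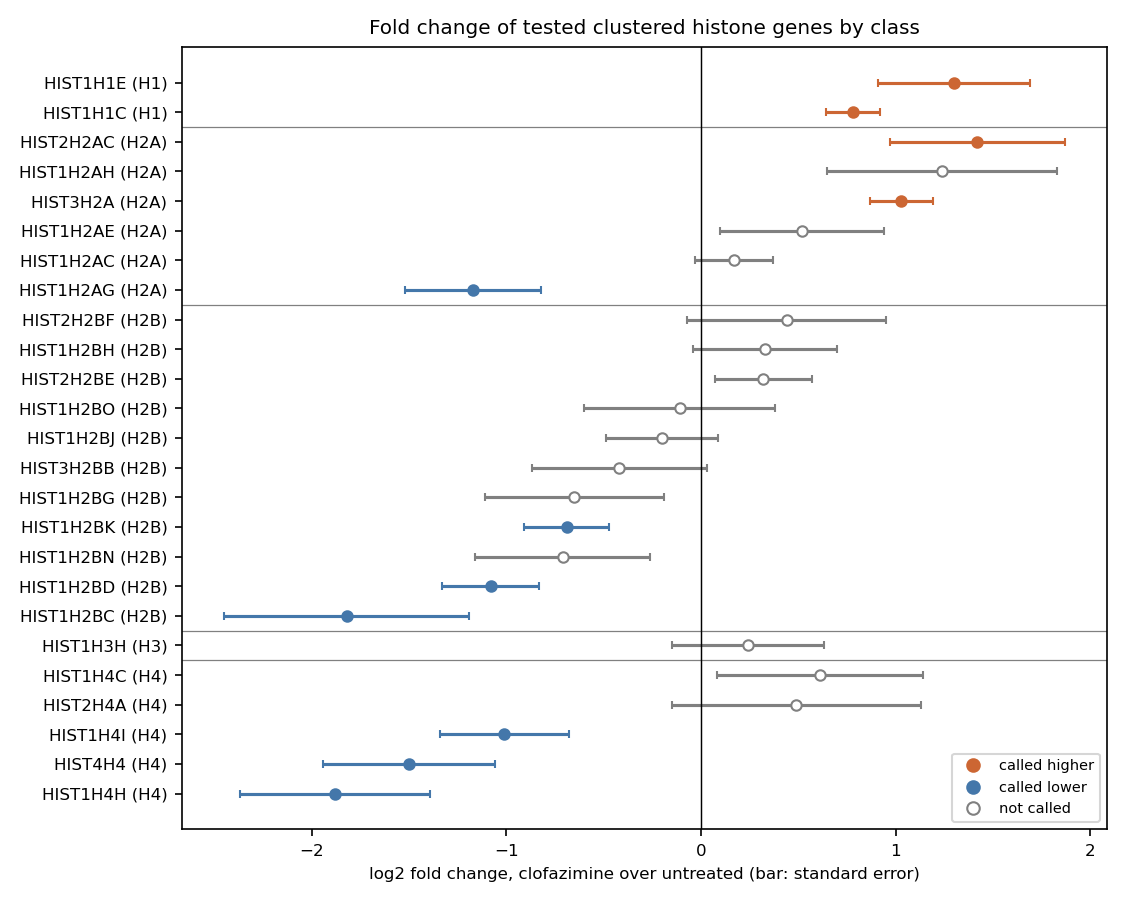
Log2 fold change of clofazimine-treated over untreated cells for the 25 clustered histone genes tested, grouped by histone class, with bars for the standard error from edgeR's quasi-likelihood fit. Both tested H1 genes lie right of 0, at 0.78 and 1.30, and the 3 called H4 genes lie left of 0, from -1.01 to -1.88.

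Both linker histone members that could be tested were called higher in treated cells. HIST1H1C (ENSG00000187837, GRCh38 chr6:26055787-26056428, minus strand, model of coding bases only) encodes histone H1.2 and had the most reads of all members. Its level was 19.7 and 20.6 CPM in untreated replicates 1 and 2 and 32.6 and 36.4 CPM in clofazimine replicates 1 and 2, so the groups were well apart. That is 20.1 ± 0.652 against 34.5 ± 2.64 CPM (SD, n = 2 each), a 1.71-fold rise (log2 0.78, SE 0.14, edgeR adjusted p 1.52e-04). Its share of all member counts went from 20.2% and 21.2% to 30.0% and 30.6%.

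HIST1H1E (ENSG00000168298, chr6:26156354-26157107, plus strand) encodes histone H1.4 and had 17 and 18 counts in untreated and 25 and 45 counts in treated libraries. Its level of 0.97 and 1.02 CPM became 1.94 and 2.95 CPM, a rise of 1.30 on the log2 scale (SE 0.39, edgeR adjusted p 0.0086). Both treated libraries were above both untreated ones, but the treated pair differed from each other by about as much as the whole untreated level. The call was lost without untreated replicate 1 (log2 1.24, edgeR adjusted p 0.0685), without untreated replicate 2 (1.32, 0.0598), without clofazimine replicate 2 (0.97, 0.0996) and with DESeq2 (adjusted p 0.0865). Here and below, a fit that leaves out a library keeps 1 library in its group, which is assumed to vary like the other group. HIST1H1D could not be tested and had 6 and 2 counts in untreated and 1 and 2 in treated libraries. HIST1H1B had 3 counts in 1 library, and HIST1H1A and the testis gene HIST1H1T had 0 counts in all 4.

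The H1 genes outside the clusters, which make polyadenylated mRNA, rose as well. H1F0, which encodes the H1.0 of differentiated or resting cells, was at 1087.7 and 756.4 CPM in untreated and 2556.3 and 2535.2 CPM in treated libraries (log2 1.47, SE 0.17, edgeR adjusted p 1.55e-06). H1FX, which encodes H1.10, was at 271.3 and 248.2 CPM and then 889.1 and 956.2 CPM (log2 1.83, SE 0.13, edgeR adjusted p 1.27e-08). H1FX overlaps H1FX-AS1 on the opposite strand, and reads of the pair cannot be told apart if counting ignored strand, which is not given in the sources used here. All 4 tested linker histone genes, clustered or not, were called higher in treated cells, as were 29.5% of all tested genes. Among the clustered members this rests on HIST1H1C and on HIST1H1E, whose call was lost in 4 of the 12 alternative fits.

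**Figure D2:**
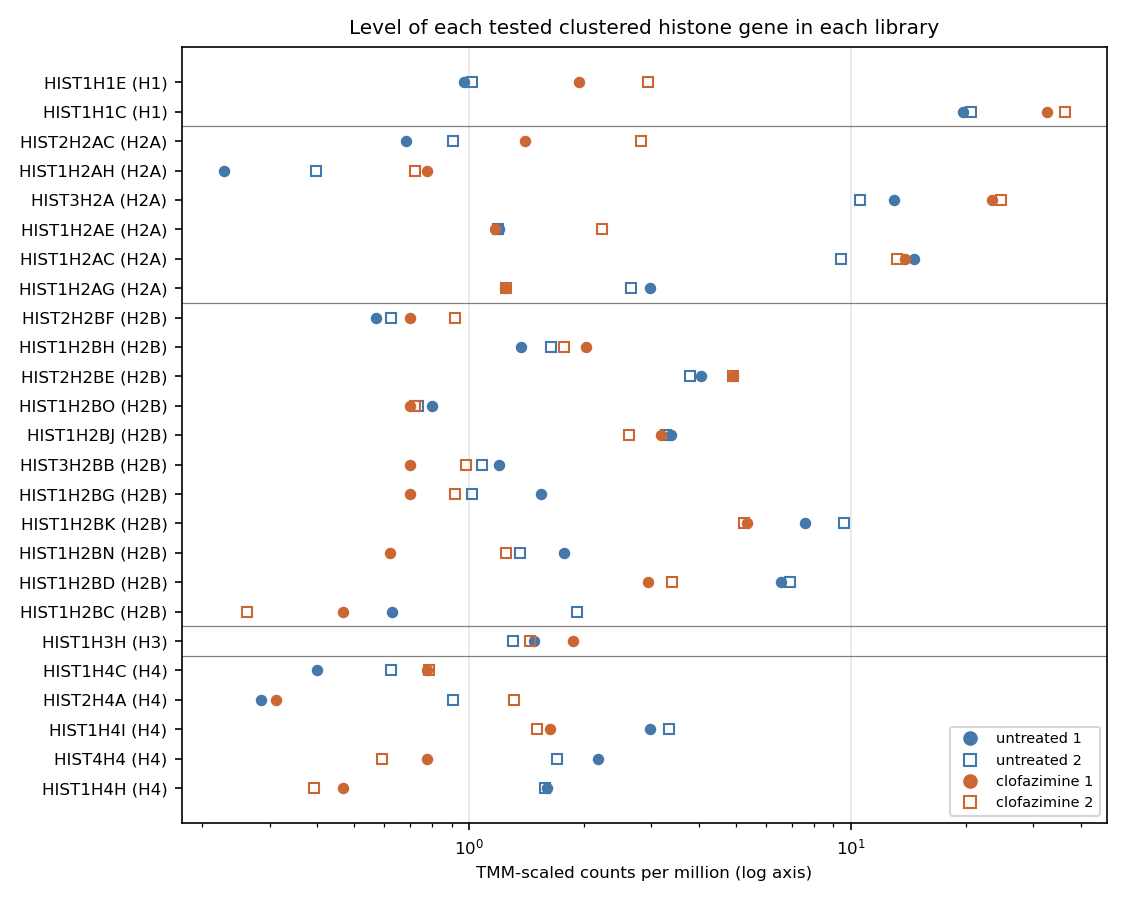
Level in each of the 4 libraries, in TMM-scaled CPM on a log axis, of the 25 tested members, ordered by class; points are single libraries, coloured by group. Treated points lie above untreated points for HIST1H1C and HIST3H2A and below them for HIST1H2BD, HIST1H4H and HIST4H4.

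H2A members moved both ways. HIST3H2A (ENSG00000181218, chr1:228456979-228457873, minus strand), an H2A gene of the small HIST3 cluster, was at 13.0 and 10.6 CPM in untreated and 23.4 and 24.8 CPM in treated libraries. It rose 2.05-fold (log2 1.03, SE 0.16, edgeR adjusted p 3.97e-05) and its groups did not overlap. HIST2H2AC (ENSG00000184260, chr1:149886975-149887364, plus strand) had 12, 16, 18 and 43 counts, in the order untreated 1 and 2 and clofazimine 1 and 2, or 0.685, 0.906, 1.4 and 2.82 CPM. It was called higher (log2 1.42, SE 0.45, edgeR adjusted p 0.0121), with most of the rise in clofazimine replicate 2. Without that library its log2 fold change was 0.82 (edgeR adjusted p 0.219), and the call was also lost without untreated replicate 1 (log2 1.21, adjusted p 0.109), with DESeq2 (0.0988) and after length and GC correction (0.0599).

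HIST1H2AG (ENSG00000196787, chr6:27133042-27135291, plus strand), whose model runs past its stem-loop, was lower: 2.97 and 2.66 CPM in untreated and 1.24 and 1.25 CPM in treated libraries. The fall was 2.25-fold (log2 -1.17, SE 0.35, edgeR adjusted p 0.00871), a call lost without untreated replicate 1 (log2 -1.11, adjusted p 0.0773) and with DESeq2 (0.101). HIST1H2AC, among the 3 members with the most reads, had 256, 167, 179 and 201 counts and overlapping groups (log2 0.17, 95% interval -0.22 to 0.56, edgeR adjusted p 0.471). HIST1H2AE (log2 0.52) and HIST1H2AH (log2 1.24, edgeR adjusted p 0.0801) were not called either. HIST1H2AH rested on 4, 7, 10 and 11 counts.

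H2B members fell or were not called. HIST1H2BD (ENSG00000158373, chr6:26158146-26171349, plus strand) was at 6.56 and 6.91 CPM in untreated and 2.95 and 3.41 CPM in treated libraries, a 2.11-fold fall (log2 -1.08, SE 0.25, edgeR adjusted p 0.00132). It overlaps the lncRNA gene AL353759.1 on the opposite strand. HIST1H2BK (ENSG00000197903, chr6:27146418-27146798, minus strand) was at 7.59 and 9.57 and then 5.36 and 5.24 CPM, a 1.62-fold fall (log2 -0.69, SE 0.22, edgeR adjusted p 0.0112). Of its 50-base windows, 74.1% also occur in another gene's transcripts, so its reads could have been split or lost between copies. Its call was lost without untreated replicate 2 (log2 -0.53, adjusted p 0.138) and with DESeq2 (0.0887).

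HIST1H2BC (ENSG00000180596, chr6:26114873-26123926, minus strand) had 11 and 34 counts in untreated and 6 and 4 in treated libraries. Both treated libraries were lower (log2 -1.82, SE 0.63, edgeR adjusted p 0.0197), but the untreated replicates differed from each other by more than untreated replicate 1 differed from either treated library. Without untreated replicate 2 its log2 fold change was -0.81 (edgeR adjusted p 0.544), and without clofazimine replicate 2 it was -1.43 (0.171). The call was also lost with no filter on low counts (0.0925), with DESeq2 (0.141) and with limma-voom (0.0502). The other 8 tested H2B members were not called, with log2 fold changes between -0.71 (HIST1H2BN) and 0.44 (HIST2H2BF). HIST2H2BE was at 4.05 and 3.79 and then 4.90 and 4.92 CPM (log2 0.32, 95% interval -0.17 to 0.81, edgeR adjusted p 0.274).

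H4 held the largest fall among the 25 tested members. HIST1H4H (ENSG00000158406, chr6:26277609-26285638, minus strand) had 28 counts in each untreated and 6 in each treated library, or 1.60, 1.58, 0.466 and 0.393 CPM. It fell 3.67-fold (log2 -1.88, SE 0.49, edgeR adjusted p 0.00324), and of the alternatives run only DESeq2 ended the call (0.0644). HIST4H4 (ENSG00000197837, chr12:14767999-14771131, minus strand), the gene outside the large clusters, was at 2.17 and 1.70 and then 0.777 and 0.59 CPM (log2 -1.50, SE 0.44, edgeR adjusted p 0.00761). Its call was lost without untreated replicate 1 (log2 -1.33, adjusted p 0.108), without clofazimine replicate 2 (-1.29, 0.0551) and with DESeq2 (0.0953). HIST1H4I (ENSG00000276180, chr6:27138588-27139881, plus strand) was at 2.97 and 3.34 and then 1.63 and 1.51 CPM, a 2.01-fold fall (log2 -1.01, SE 0.33, edgeR adjusted p 0.0148). Its call was lost without untreated replicate 1 (log2 -1.11, adjusted p 0.0507), untreated replicate 2 (-0.93, 0.112) or clofazimine replicate 2 (-0.94, 0.0585) and with DESeq2 (0.134). HIST1H4C and HIST2H4A were not called, at 0.61 and 0.49 on the log2 scale, and 97.5% of the 50-base windows of HIST2H4A occur in another gene.

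H3 RNA was scarce. HIST1H3H (ENSG00000278828, chr6:27810064-27811300, plus strand), the 1 H3 member that could be tested, had 26, 23, 24 and 22 counts and overlapping groups (log2 0.24, 95% interval -0.53 to 1.00, edgeR adjusted p 0.613). With no filter on low counts, 59 members entered the fit and 12 were called, 4 higher and 8 lower, where 26.6% of all genes were called. Of these 10 had been called before. HIST1H3E was new among them, with 10 and 11 counts in untreated and 0 in treated libraries, at least 2.78-fold lower against a floor of 3 counts per library (edgeR adjusted p 0.0155). HIST1H4K was the other, with 9, 15, 0 and 1 counts (0.0221), but all of its 50-base windows also occur in another gene.

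Of the 46 members that could not be tested, 12 had 0 counts in every library and 34 had a few, up to 33 counts over all 4. Among those 34 the groups did not overlap in 17, of which 10 were lower and 7 higher in treated cells. Of all 15070 genes with a count but too few to test, 36.0% did not overlap, 21.0% lower and 15.0% higher. HIST3H3, an H3 gene expressed mainly in testis, had 10 and 10 counts in untreated and 2 and 2 in treated libraries. HIST1H3B had 8, 20, 3 and 2 counts and HIST1H3G 6, 15, 2 and 3. These 3 H3 genes were all lower in both treated libraries, but no difference was detectable for single genes at this depth (no-filter edgeR adjusted p 0.0799, 0.0766 and 0.156). Among H2A genes, HIST1H2AJ had 1, 0, 2 and 7 counts.

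Summed by class over all members, tested or not, H1 and H2A were higher and H2B, H3 and H4 lower in treated cells. H1 totalled 21.0 and 21.7 CPM in untreated and 34.7 and 39.7 CPM in treated libraries, and H2A 33.2 and 25.9 and then 42.9 and 46.3 CPM. H2B totalled 30.6 and 32.9 and then 23.0 and 23.8 CPM, H3 4.05 and 5.77 and then 3.5 and 2.62 CPM, and H4 8.67 and 10.7 and then 4.90 and 6.42 CPM. In none of the 5 classes did the groups overlap, a separation that 80.8% of all tested genes showed too. The log2 ratios of the group means were 0.80 for H1, 0.59 for H2A, -0.44 for H2B, -0.68 for H3 and -0.77 for H4, given as values without a test. The H2A sum rested on HIST3H2A: without it H2A totalled 20.2 and 15.3 and then 19.5 and 21.5 CPM, and the groups overlapped (log2 ratio 0.21). HIST1H1C supplied most of H1, and the other 5 H1 genes totalled 1.31 and 1.13 and then 2.02 and 3.28 CPM (log2 ratio 1.12). Without HIST1H3H, H3 totalled 2.57 and 4.47 and then 1.63 and 1.18 CPM (log2 ratio -1.32). Leaving out the member with the most counts in each class was an alternative added after the data were seen.

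**Figure D3:**
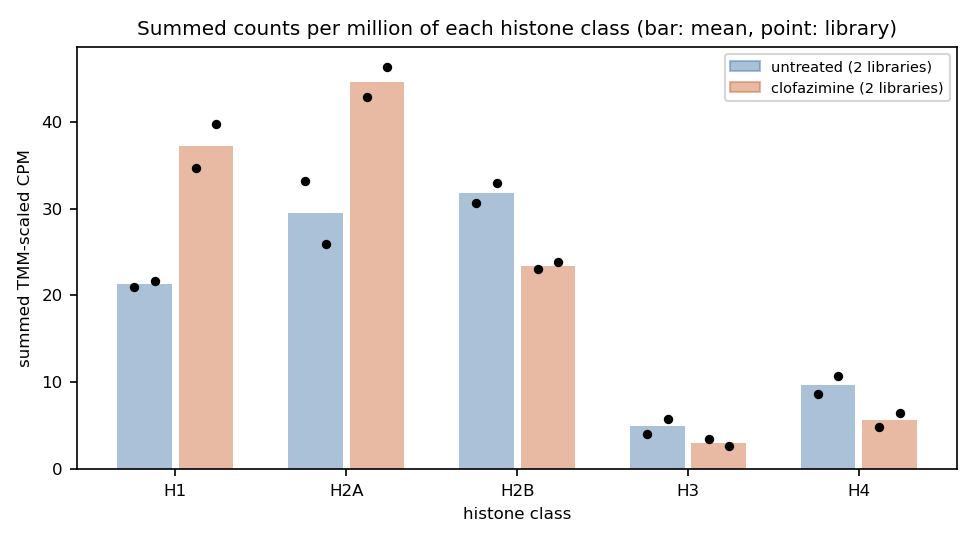
Summed level in TMM-scaled CPM of all members of each histone class, with 1 point per library and a bar at the group mean. H1 and H2A lie higher in the 2 treated libraries and H2B, H3 and H4 lie lower; without HIST3H2A the H2A groups overlap.

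Many H2A and H2B genes sit head to head and share the stretch between their starts. The annotation holds 11 such pairs within 1000 bases, and 6 had at least 20 counts for each gene over the 4 libraries. H2A's share of the pair's counts compares both partners within a library, free of library scaling. For HIST3H2A and HIST3H2BB, 234 bases apart, the share was 91.6% and 90.8% in untreated and 97.1% and 96.2% in treated libraries. The H2B partner here had 21, 19, 9 and 15 counts and was not called (log2 -0.42).

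HIST2H2AC's share beside HIST2H2BE, 323 bases apart, was 14.5% and 19.3% and then 22.2% and 36.4%. HIST1H2AC's share beside HIST1H2BC was 95.9% and 83.1% and then 96.8% and 98.0%, and the 95% exact Clopper-Pearson intervals of untreated replicate 1 (92.7% to 97.9%) and clofazimine replicate 1 (93.1% to 98.8%) overlap almost wholly. HIST1H2AE's share beside HIST1H2BG was 43.8% and 53.8% and then 62.5% and 70.8%. HIST1H2AH's share beside HIST1H2BK, which has many shared windows, was 2.92% and 3.98% and then 12.7% and 12.1%. The share moved the other way in the pair HIST1H2AG and HIST1H2BJ, 292 bases apart, from 46.8% and 44.8% to 28.1% and 32.2%.

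Thus H2A's share was higher in both treated libraries in 5 of the 6 pairs and lower in the other. The groups did not overlap in any pair. Such separation was common in these libraries: the levels of single genes did not overlap in 80.8% of all tested genes. With 2 libraries against 2, the smallest p that a two-sided exact permutation test can give is 0.333, above the 0.05 threshold; no other test of the shares was run. Of the tested members 44.0% were called, and of all tested genes 59.9%. These are shares of single genes, so they give no rate for both partners of a pair. In no pair were both partners called. A partner that was not called may still have changed, so this does not show that partners differ. The starts in these 6 pairs lie at most 331 bases apart. Differences in transcript models between partners are a further limit.

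**Figure D4:**
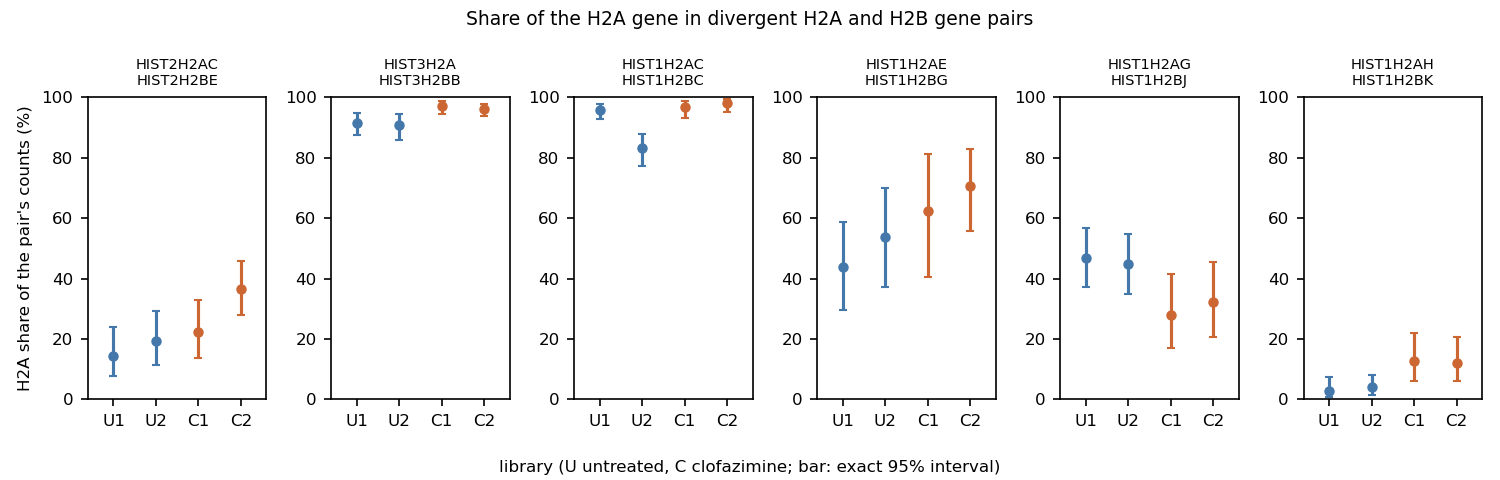
Share of each divergent pair's counts that fell on the H2A gene, in percent, for the 6 pairs with enough counts; points are libraries and bars are 95% exact Clopper-Pearson intervals, which cover counting error only. The share is higher in the 2 treated libraries in 5 pairs and lower for HIST1H2AG and HIST1H2BJ.

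Genes that act on histone genes and their RNA were read from lists chosen for their roles. Over all tested genes 59.9% were called, 29.5% higher and 30.4% lower. Of 14 genes of histone gene transcription 4 were higher and 4 lower. That is 57.1% called, near the share of all genes, with a median log2 fold change of -0.08. Cyclin E was lower: CCNE1 was at 47.6 and 42.2 CPM in untreated and 14.5 and 14.8 CPM in treated libraries (log2 -1.61, SE 0.14, edgeR adjusted p 9.94e-08) and CCNE2, which overlaps genes on the opposite strand, at 15.9 and 15.9 and then 5.98 and 6.75 CPM (log2 -1.31, edgeR adjusted p 1.28e-05). HINFP, the activator of H4 genes, was higher, at 18.5 and 20.5 and then 27.9 and 34.5 CPM (log2 0.68, edgeR adjusted p 9.27e-04), as was the E2F family member E2F4 (log2 0.48). NPAT itself, which overlaps ATM on the opposite strand, was not called (log2 -0.29, edgeR adjusted p 0.063). Some genes named below without such a mark, among them H3F3B, ASF1B, NAP1L1, KRT8 and KRT18, also overlap a gene on the opposite strand.

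Among 23 genes of histone mRNA 3′ end formation and decay, 8 were higher and 7 lower (65.2% called against 59.9% of all tested genes, median 0.13). SLBP was at 97.8 and 91.7 and then 98.8 and 114.3 CPM and was not called (log2 0.17, edgeR adjusted p 0.238). LSM10, a U7 snRNP protein, went from 26.1 and 23.5 to 44.9 and 57.7 CPM (log2 1.05, edgeR adjusted p 1.22e-05), and TENT4B, a poly(A) polymerase, rose by a log2 of 0.97. MIF4GD, the SLBP partner SLIP1, went from 33.2 and 33.1 to 15.0 and 17.4 CPM (log2 -1.03, edgeR adjusted p 1.60e-05), and the cleavage factor CSTF2T fell by 0.82 on the log2 scale. MIF4GD and CSTF2T each overlap a gene on the opposite strand.

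Of 11 tested genes listed as replication-independent histone genes, 4 were higher and 3 lower (63.6% called against 59.9% of all tested genes, median -0.02). Beside the linker genes already given, the H3.3 gene H3F3A was lower, 185.9 and 221.0 and then 96.7 and 121.5 CPM (log2 -0.90, edgeR adjusted p 3.75e-05), and so was H2AFX, the H2A.X gene (log2 -0.76). H3F3B, which encodes the same H3.3 protein, was higher (log2 0.59, edgeR adjusted p 0.0014). Of 21 tested histone chaperones 7 were lower and 3 higher (47.6% called against 59.9% of all tested genes, median -0.18). ASF1B, an H3-H4 chaperone of dividing cells, went from 163.7 and 193.0 to 48.9 and 56.3 CPM (log2 -1.76, edgeR adjusted p 1.47e-08), and the FACT subunit SUPT16H fell by 1.24 on the log2 scale. NAP1L1, an H2A-H2B chaperone, was higher (log2 0.74), as was MMS22L (log2 0.47).

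Genes of S phase fell in 15 of 25 (60.0%) and rose in 2 (8.0%), against 30.4% lower and 29.5% higher over all tested genes. Of the list 68.0% were called, against 59.9% of all, with a median log2 fold change of -0.45. UHRF1, which maintains DNA methylation at replication, went from 258.3 and 267.2 to 112.8 and 97.4 CPM (log2 -1.32, edgeR adjusted p 2.42e-07), and POLA1, the catalytic subunit of polymerase alpha, fell by 0.85. The 2 that rose were the licensing factor CDT1 (log2 0.53) and CDCA7 (log2 0.35). The median of the 25 tested histone members was 0.17, the value of HIST1H2AC, which was not called. Of these members 13 lay above 0 and 12 below, and 4 were called higher and 7 lower. Scaling by library totals moved the median of all genes by -0.17, so the sign of the histone median is not firm. Whether the changes of histone and S phase genes are related was not tested.

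**Figure D5:**
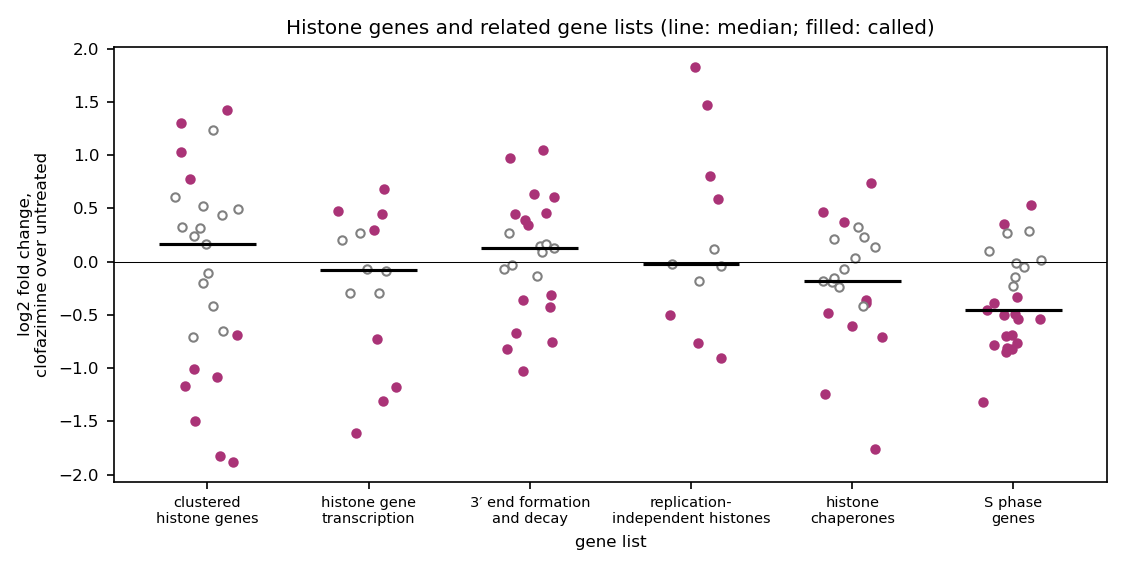
Log2 fold changes, clofazimine over untreated, of the tested genes of each list of histone-related genes, 1 point per gene, with the list's median as a line and the clustered histone genes for comparison. S phase genes have the lowest list median, -0.45, and the clustered histone genes a median of 0.17, with 13 members above 0 and 12 below.

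Noncoding RNAs also moved with the groups. All 5 tested genes of a list of 13 noncoding RNAs used to watch RNA quality were called higher in treated cells. They ranged from NEAT1 (log2 0.37) to GAS5 (log2 1.98), where 29.5% of all tested genes were called higher. Such a rise does not by itself measure RNA quality. Of the 13 genes 7 had 0 counts in every library. Their summed level was 2117.5 and 2091.2 CPM in untreated and 4141.4 and 3540.7 CPM in treated libraries. It includes RN7SL2, an abundant RNA without a usual poly(A) tail, at 405.8 and 462.2 and then 1075.0 and 636.9 CPM. The part of poly(A) selection or RNA quality in the histone values was not tested.

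The label of a liver cancer line was checked against 15 hepatocyte and liver cancer markers. ALB, AFP, APOB, TTR and FGB had 0 counts in every library, and the summed level of the list was 1621.4 and 1893.5 and then 1764.5 and 2001.7 CPM, mostly KRT8 and KRT18. Of the 5 tested, KRT18 was higher in treated cells (log2 0.36, edgeR adjusted p 0.0364), HNF4A (log2 -3.17) and SERPINA1 (log2 -2.14) were lower, and KRT8 (log2 -0.03) and EPCAM (log2 0.40) were not called. Of other cell types, 4 endothelial markers, 1 of them at 0, summed to 25.4 and 32.8 and then 5.98 and 5.77 CPM, and both that could be tested were lower, PECAM1 (log2 -2.37) and CDH5 (log2 -1.72). The 5 fibroblast markers summed to 110.4 and 112.9 and then 145.0 and 123.3 CPM, nearly all of it COL1A1, which was higher (log2 0.44), while PDGFRB (log2 -2.96, edgeR adjusted p 1.93e-07) and DCN (log2 -1.28, edgeR adjusted p 0.00206) were lower. The 5 blood markers, 3 of them at 0, summed to at most 0.524 CPM. Their part in the histone values was not tested.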

How the data were processed

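Per the labels' protocols, libraries of polyadenylated RNA were made with an Illumina TruSeq kit; the submitters' processing notes name fastp and GRCh38, and the sources used here do not name an aligner, a counter or a strand setting. The authors deposited raw counts per gene, per the file headers, which were used as deposited. Gene IDs were matched to GENCODE 29. Genes were filtered with edgeR's filterByExpr, scaled by TMM and tested with edgeR 4.0.16 (quasi-likelihood, R 4.3.3, Benjamini-Hochberg over 16388 genes, adjusted p under 0.05). Levels are CPM on TMM-scaled library sizes, and the test was checked on simulated data. The 95% intervals of log2 fold changes use a normal approximation on the SE. With 2 libraries per group they may be too narrow. The alternatives were DESeq2 size factors, library totals, no filter, a minimum of 1 CPM in 2 libraries, DESeq2 1.42.0, limma-voom 3.58.1, a replicate block, leaving out each library, and length and GC correction. Same-numbered libraries did not deviate together (correlation -0.05), so they were not treated as pairs.

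The members and gene lists were chosen with earlier results of these data known. By rule, the member of each class with the highest mean CPM and up to 3 called members per direction with a mean of at least 1 CPM, and 2 called genes per direction in each related list, were named; HIST1H2BC, HIST1H3E, HIST1H4K, HIST3H3, HIST1H3B, HIST1H3G, HIST1H2AJ, HIST2H2BE, H3F3B, SLBP, NPAT and other uncalled genes were chosen after their values were seen. Stem-loops, shared 50-base windows and models come from GENCODE 29 transcripts, and promoters from RefSeq.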

Additional observations from a re-analysis of the deposited data

Results flagged for a closer look

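Among 19 histone genes of these clusters that are annotated as noncoding, outside the protein-coding members, 6 had a count. A signal was found for HIST2H2BD, a transcribed pseudogene of the HIST2 cluster, whose RNA was higher in treated cells. It had 27 and 39 counts in untreated and 55 and 39 in clofazimine libraries, or 1.54 and 2.21 against 4.27 and 2.56 CPM (log2 0.85, SE 0.35, edgeR adjusted p 0.0447). Untreated replicate 2 and clofazimine replicate 2 had the same 39 counts, so most of the rise lay in clofazimine replicate 1. The adjusted p was close to the 0.05 threshold, and 29.5% of all tested genes were called higher. Alternative fits are not given for this gene. HIST2H2BD overlaps HIST2H2BC on the opposite strand, so reads of the pair cannot be told apart if counting ignored strand.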

How the results depend on the processing

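HIST1H1C (log2 0.61 to 0.87), HIST3H2A (0.86 to 1.17) and HIST1H2BD (-1.24 to -0.96) kept their calls in all 12 alternative fits, and no named member or list gene reversed. DESeq2's Wald test called 4 members, 2 higher and 2 lower, where edgeR called 11. Leaving out 1 library gave 7 to 14 members called, 2 to 4 higher and 4 to 10 lower. It gave 5 to 9 called genes of histone gene transcription and 8 to 14 of 3′ end formation and decay. With the replicate block 11 members and 9605 of all genes were called, against 9811, so the block moved no count of members. Over all alternatives 6920 to 9977 genes were called. Scaling by library totals moved the median of all genes by -0.17 on the log2 scale, and the length and GC correction by 0.14; under library totals 37.4% of called genes were higher, against 49.2%. Library totals gave log2 ratios of 0.63 for summed H1 and -0.61 for H2B, and pseudogenes gave -0.31 for H2B. Without the member with the most counts, an alternative chosen after seeing the data, the log2 ratio was 1.12 for H1, 0.21 for H2A and -1.32 for H3. Leaving out 1 library gave 0.70 to 0.89 for H1, 0.43 to 0.78 for H2A, -0.49 to -0.39 for H2B, -0.92 to -0.40 for H3 and -0.98 to -0.59 for H4. Of 240 values of related genes under alternatives, 233 kept their call and 7 lost it. The cause of these changes was not tested. Members with few counts are limited by depth.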

Other observations

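HIST2H2BC, an H2B pseudogene of the HIST2 cluster that overlaps HIST2H2BD, had 158 and 212 counts in untreated and 125 and 122 in clofazimine libraries, more in each library than HIST1H2BK, the H2B member with the most counts, with 133, 169, 69 and 80. These are counts not scaled for length. It was not called (log2 -0.25, edgeR adjusted p 0.295), and adding such pseudogenes to the class moved the summed H2B log2 ratio from -0.44 to -0.31.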
